A study of Mus musculus with 7 samples.

Results

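H3K79me2, the dimethyl mark on lysine 79 of histone H3, was read over 8 genes by which macrophages sense nutrients at the lysosome and set lysosome production: Tfeb, Tfe3, Mcoln1, Mtor, Rptor, Rraga, Rragc and Flcn. They were chosen by name, and every region of the deposited ChIP-seq count table that overlapped their RefSeq spans on mm10 was taken, 44 of 29397 regions. The region with the highest mean count stands for its gene. The SGC0946 group was 3 libraries of C57BL/6 bone marrow-derived macrophages given 1 µM SGC0946, which inhibits the H3K79 methyltransferase DOT1L, during differentiation. The DMSO group was 3 libraries grown likewise with the solvent alone. All cells were kept for 7 to 8 days in medium with L929-conditioned medium as the source of M-CSF. The culture notes name both WT and KO mice, and the genotype behind these libraries is not given, nor the number of mice per library.

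TFEB and TFE3 are sister transcription factors that switch on genes for lysosomes and autophagy. When amino acids are plentiful, Rag GTPases (pairs of RagA or RagB with RagC or RagD) bring the kinase complex mTORC1 to the lysosome surface, where mTOR, guided by its scaffold Raptor, phosphorylates both factors and holds them in the cytosol. Folliculin, the product of Flcn, acts on RagC and is needed for that step, and the lysosomal calcium channel encoded by Mcoln1 can release the factors through the phosphatase calcineurin. In macrophages this circuit is known for coupling phagocytosis to lysosome supply. H3K79me2 lies over the transcribed part of active genes, mostly its beginning.

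TFEB and TFE3 bind the E-box CACGTG, so this motif was looked for in the 11 RefSeq promoters of the 8 genes (GRCm38.p6, 250 bases before to 50 after each start site). It reads the same on both strands. It was found in 2 promoters, of Mcoln1 and Rragc, and in 7.15% of all 32851 promoters. The highest-count H3K79me2 regions over Mcoln1 and Rragc reach the promoters that hold CACGTG. That of Mcoln1 begins at 3500452, inside the first Mcoln1 E-box, and that of Rragc also overlaps Mycbp. The windows below show where the E-boxes lie, with the motif in capitals. They are printed 5′ to 3′ on the plus strand, on which both genes run. A match describes these letters only, and no binding was measured.
Mcoln1, chr8:3500431-3500470, motif 71 bases before the start site: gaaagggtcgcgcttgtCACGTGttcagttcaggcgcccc
Mcoln1, chr8:3500457-3500496, motif 45 bases before the start site: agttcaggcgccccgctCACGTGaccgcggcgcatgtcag
Rragc, chr4:123917304-123917343, motif 112 bases before the start site: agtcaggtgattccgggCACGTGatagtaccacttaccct

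The libraries held 2.95 to 3.13 M counts with SGC0946 and 16.7 to 19.5 M with DMSO, and the SGC0946 mean was 17.1% of the DMSO mean (exact permutation test, 2-sided, p = 0.1, the smallest that 3 against 3 libraries allow). Each region is therefore given both as an unscaled count and as its share of the library's own total. The percent of reads kept is the mean unscaled count with SGC0946 over that with DMSO, and a gene or region is called when its adjusted p is under 0.05. The unscaled count rests on equal sequencing, which the labels give only as a nominal 40 M reads. In bulk cells fewer marked cells and less mark per cell cannot be told apart. Dot1l, the gene of the inhibited enzyme, kept 16.2% of its reads and was not called in share (log2 -0.08, edgeR adjusted p = 0.265). All 9 macrophage markers (Csf1r, Spi1, Cd68 and others) had a region, at 84.5 to 339 DMSO counts per kb. The region of Cd68 also overlaps Eif4a1 and Senp3, so its counts cannot be credited to Cd68 alone. Of 16 markers of other cells 4 had one, of which Mpo, Lck and Klf1 lay at 2.67 to 8 counts per kb and Zbtb46, a dendritic cell factor whose region also overlaps Arfrp1 and Zgpat, at 124. The neutrophil gene Mpo had 12, 8 and 7 counts in SGC0946 libraries, against 7, 3 and 1 in DMSO libraries, and the lymphocyte gene Lck 8, 6 and 3 in SGC0946 libraries, against 2, 1 and 1 in DMSO libraries. The part of other cells in the results was not tested.

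All 8 genes carried the mark, and for each the highest-count region was also the nearest to the annotated start. In SGC0946 libraries Rragc stood first at 75.3 ± 5.05 counts per kb, followed by Rraga at 35.9 to 38.3 over the libraries, Flcn at 18.9 ± 1.71, Tfe3 at 18.7 ± 3.19, Tfeb at 14.3 ± 0.363, Mtor at 12.3 ± 1.77, Rptor at 12.3 ± 0.307 and Mcoln1 at 9.30 ± 1.14 (SD, n = 3). Flcn and Tfe3, and Mtor and Rptor, did not differ beyond their spread there. The spreads of Tfeb and Mtor touch too, although Tfeb lay above Mtor in 3 of 3 SGC0946 libraries. In DMSO libraries the levels were 316 ± 29.0 for Rragc, 203 ± 23.5 for Rraga, 162 ± 11.5 for Flcn, 133 ± 7.32 for Tfeb, 121 ± 9.60 for Tfe3, 110 ± 10.1 for Rptor, 95.6 ± 13.7 for Mtor and 73.8 ± 11.6 counts per kb for Mcoln1. Each neighbouring pair kept this order in 3 of 3 DMSO libraries, although the spreads of Tfeb and Tfe3, Tfe3 and Rptor, Rptor and Mtor, and Mtor and Mcoln1 touch. Tfe3 lay above Tfeb in 3 of 3 SGC0946 libraries and below it in 3 of 3 DMSO libraries. Rragc was denser than 96.7% of coding genes with a region in DMSO libraries, Rraga than 82.7% and Mcoln1 than 31.7%. The regions of Rragc and Rraga also overlap Mycbp and Haus6, so these densities cannot be credited to the named genes alone.

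**Figure D1:**
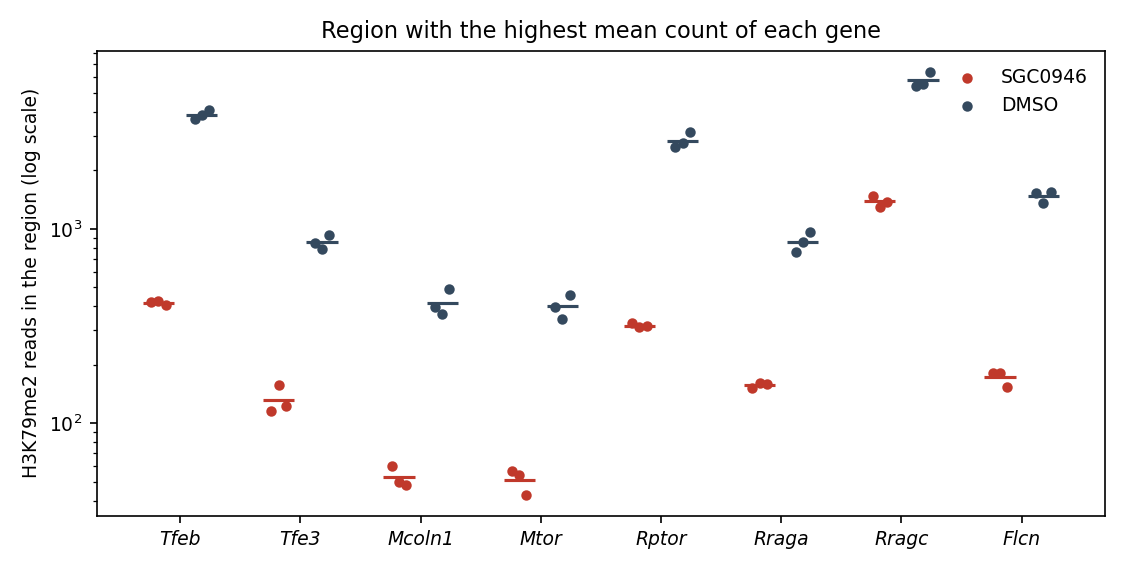
Unscaled H3K79me2 reads (log scale) in the region with the highest mean count of each gene; points are libraries, bars are means, SGC0946 left of DMSO. In each of the 8 genes all 3 SGC0946 libraries lie below all 3 DMSO libraries.

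The mark fell over every one of the 8 genes in unscaled counts (log2 -2.07 to -3.22, edgeR quasi-likelihood test, adjusted p from 1.7e-180 for Tfeb to 1.2e-71 for Mtor). So did 99.8% of the 9094 coding genes tested, while 0.022% were higher. The unscaled p-values take sequencing as equal in all libraries and do not measure the uncertainty of that. All 44 regions had every SGC0946 count below every DMSO count, against 92.4% of all regions, and all 40 that passed the count filter were called lower, against 99.7% of regions (0.0201% were higher). In share of the library 5 of the 8 genes were lower (Tfeb, Rptor, Flcn, Mcoln1, Mtor) and 2 did not pass (Tfe3, Rraga). The 1 higher was Rragc, by a region that also overlaps Mycbp. Among 9089 coding genes 50.1% were lower and 9.98% higher, so these counts lie near the background. The median log2 fold change in share was -0.42 over the 8 genes and -0.29 over all coding genes tested.

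Tfeb, which encodes the main factor of the lysosomal gene programme, lost the largest part of its mark among the 8. Its region (chromosome 17, 47737680 to 47766829, 29150 bp) lies inside the gene and starts 643 bases after the first annotated start site. It held 420, 424 and 404 counts in SGC0946 libraries, against 3672, 3836 and 4095 in DMSO libraries. The groups are far apart and the SGC0946 libraries nearly equal. Tfeb kept 10.8% of its reads, and only 4.92% of the 7942 tested coding genes with a mean of at least 50 counts kept less. Its share fell, at log2 -0.67 ± 0.05 (SE, edgeR adjusted p = 1.9e-17).

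Tfe3, the sister factor on the X chromosome, was not called in share. Its region (chromosome X, 7762854 to 7769915, 7062 bp) had 116, 158 and 123 counts in SGC0946 libraries, against 847, 791 and 926 in DMSO libraries. SGC0946 replicate 2 was the highest of its group, while DMSO replicate 2 was the lowest of its own. Tfe3 kept 15.5%, and its log2 change in share of -0.14 ± 0.09 did not pass (edgeR adjusted p = 0.279). Without SGC0946 replicate 2 it passed as lower (log2 -0.29, adjusted p = 0.0230), and with all libraries it did so when scaled on the sparsest 25% of regions (log2 -0.85, adjusted p = 3.3e-07). The reads of Tfeb over those of Tfe3 within a library need no scaling: this log2 ratio was 1.86, 1.42 and 1.72 in SGC0946 libraries, against 2.12, 2.28 and 2.14 in DMSO libraries, and the groups did not overlap. The difference of -0.51, or 1.43-fold, had an exact permutation p = 0.1, the smallest possible (2-sided, adjusted p = 0.167 over 5 ratios).

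Mcoln1, the gene of the lysosomal channel TRPML1, had the sparsest mark of the 8 (chromosome 8, 3500452 to 3506113, 5662 bp, crossing the start site). It had 60, 50 and 48 counts in SGC0946 libraries, against 398, 364 and 491 in DMSO libraries, and kept 12.6%. Its share fell, at log2 -0.44 ± 0.13 (edgeR adjusted p = 0.00545). The call was lost with the DESeq2 Wald test (adjusted p = 0.198) and with cyclic loess (log2 -0.08, adjusted p = 0.745).

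Mtor and Rptor encode the kinase and the scaffold of mTORC1, and their marks had very different extents. The only Mtor region (chromosome 4, 148448389 to 148452557, 4169 bp) crossed the start site and covered 3.64% of a gene of 109104 bp. Rptor, a gene of 296687 bp, had 27 regions covering 42.3% of it, the first (chromosome 11, 119603052 to 119628940) 25889 bp long. Mtor had 57, 54 and 43 counts in SGC0946 libraries, against 398, 342 and 456 in DMSO libraries, and kept 12.9%. The first Rptor region had 327, 312 and 315 counts in SGC0946 libraries, against 2640, 2748 and 3139 in DMSO libraries, and kept 11.2%.

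The shares of both genes fell, at log2 -0.61 ± 0.06 for Rptor (edgeR adjusted p = 1.9e-14) and log2 -0.41 ± 0.13 for Mtor (adjusted p = 0.0123). The Mtor call was lost with TMM factors (adjusted p = 0.0690), DESeq2 size factors (0.0801), the DESeq2 Wald test (0.265), cyclic loess (0.823) and without SGC0946 replicate 3 (0.127). The within-library log2 ratio of Mtor over Rptor was -2.52, -2.53 and -2.87 in SGC0946 libraries, against -2.73, -3.01 and -2.78 in DMSO libraries. These groups overlap, and a difference between the genes was not detectable (0.20, exact permutation p = 0.3).

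Rraga and Rragc encode RagA and RagC, which pair to recruit mTORC1. Their highest-count regions, each shared with another coding gene, kept the most of the 8. The Rraga region (chromosome 4, 86575492 to 86579724, 4233 bp) spans the whole gene of 1613 bp and also overlaps Haus6, so its counts cannot be credited to Rraga alone. It had 152, 162 and 160 counts in SGC0946 libraries, against 760, 856 and 959 in DMSO libraries, and kept 18.4%. Its log2 change in share was 0.11 ± 0.08 (edgeR adjusted p = 0.379). With scaling on the sparsest 25% of regions it turned to -0.59 and passed as lower (adjusted p = 4.8e-04), and with cyclic loess it passed as higher (log2 0.47, adjusted p = 8.0e-04).

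The highest-count region over Rragc (chromosome 4, 123903091 to 123921438, 18348 bp) runs from -14342 to 4005 bases relative to the Rragc start site and also overlaps Mycbp, which encodes a MYC-binding protein, and the non-coding gene D130007C19Rik. It had 1478, 1293 and 1374 counts in SGC0946 libraries, against 5430, 5564 and 6411 in DMSO libraries. It kept 23.8% and rose in share by log2 0.48 ± 0.04 (edgeR adjusted p = 1.1e-15), although its unscaled counts fell. Scaled on the sparsest 25% of regions, its share turned to log2 -0.20 (adjusted p = 0.376). The regions that overlap no coding gene but Rragc went the other way. The second (123921965 to 123927637) had 202, 190 and 163 counts in SGC0946 libraries, against 1432, 1427 and 1595 in DMSO libraries, and kept 12.5%. The third (123928282 to 123936242) had 180, 174 and 155 counts in SGC0946 libraries, against 1293, 1231 and 1475 in DMSO libraries, and kept 12.7%. Their shares fell, at log2 -0.46 and -0.42 (adjusted p = 3.1e-07 and 3.1e-06). The rise in share credited to Rragc by the highest count is therefore that of a region shared with Mycbp, and with each region given only to the coding gene it overlaps most, Rragc was lower and none of the 8 genes was higher.

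Flcn, the gene of folliculin, runs on the minus strand of chromosome 11, and its first region (59800744 to 59809858, 9115 bp) starts 181 bases inside the gene. It had 181, 181 and 154 counts in SGC0946 libraries, against 1526, 1352 and 1540 in DMSO libraries. Flcn kept 11.7% and its share fell, at log2 -0.55 ± 0.08 (edgeR adjusted p = 1.5e-08). The call was lost with cyclic loess (log2 -0.22, adjusted p = 0.0736). Within libraries the log2 ratio of Flcn over the first Rragc region was -3.03, -2.84 and -3.16 in SGC0946 libraries, against -1.83, -2.04 and -2.06 in DMSO libraries. The groups did not overlap and differed by -1.03 (exact permutation p = 0.1, adjusted p = 0.167 over 5 ratios). Summed over all regions of each gene the difference was -0.73, but the region shared with Mycbp made up 67.3% of the Rragc sum in DMSO libraries. The Rragc regions that overlap no other coding gene kept 12.5% and 12.7%, near the 11.7% of Flcn. A difference between the genes outside the shared region was not tested. Rraga over Rragc differed by -0.37 (exact permutation p = 0.1) and by -0.13 on sums (p = 0.3), and Mcoln1 over Tfeb by 0.23 with overlapping groups (p = 0.3).

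Along the longer genes the mark thinned with distance from the start, and the first region of Tfeb, Flcn and Rptor kept less than the later regions of the gene summed. Taken singly, the last Tfeb region kept 10.7%, against 10.8% for the first. It overlaps another annotated Tfeb promoter, and at 52.9 counts per kb in DMSO libraries it was denser than the region before it at 32.7. The 4 later Tfeb regions together had 164, 156 and 155 counts in SGC0946 libraries, against 1149, 1201 and 1259 in DMSO libraries, and kept 13.2%, against 10.8% for the first. Among them the region of 12254 bp fell in share (log2 -0.40, edgeR adjusted p = 7.8e-05) and the other 3 did not pass. The later Flcn regions kept 15.9%, against 11.7% for the first, and the 26 later Rptor regions 14.3%, against 11.2%. The ratio of later to first regions was higher in every SGC0946 library than in any DMSO library for these 3 genes, by log2 0.29 for Tfeb, 0.42 for Flcn and 0.35 for Rptor (exact permutation p = 0.1 each, adjusted p = 0.125 over 5 genes). This held for 31.4% of 1858 coding genes whose first region and later regions together each averaged 50 counts or more, and 64.7% of them had a positive difference. In Tfe3 the later regions kept 15.0% and the first 15.5%, with overlapping groups (exact permutation p = 1). Rragc had the opposite sign at -0.92 (exact permutation p = 0.1), a separation seen in 16.9% of genes, with the region shared with Mycbp as the first. These comparisons within genes were chosen after the values were seen.

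**Figure D2:**
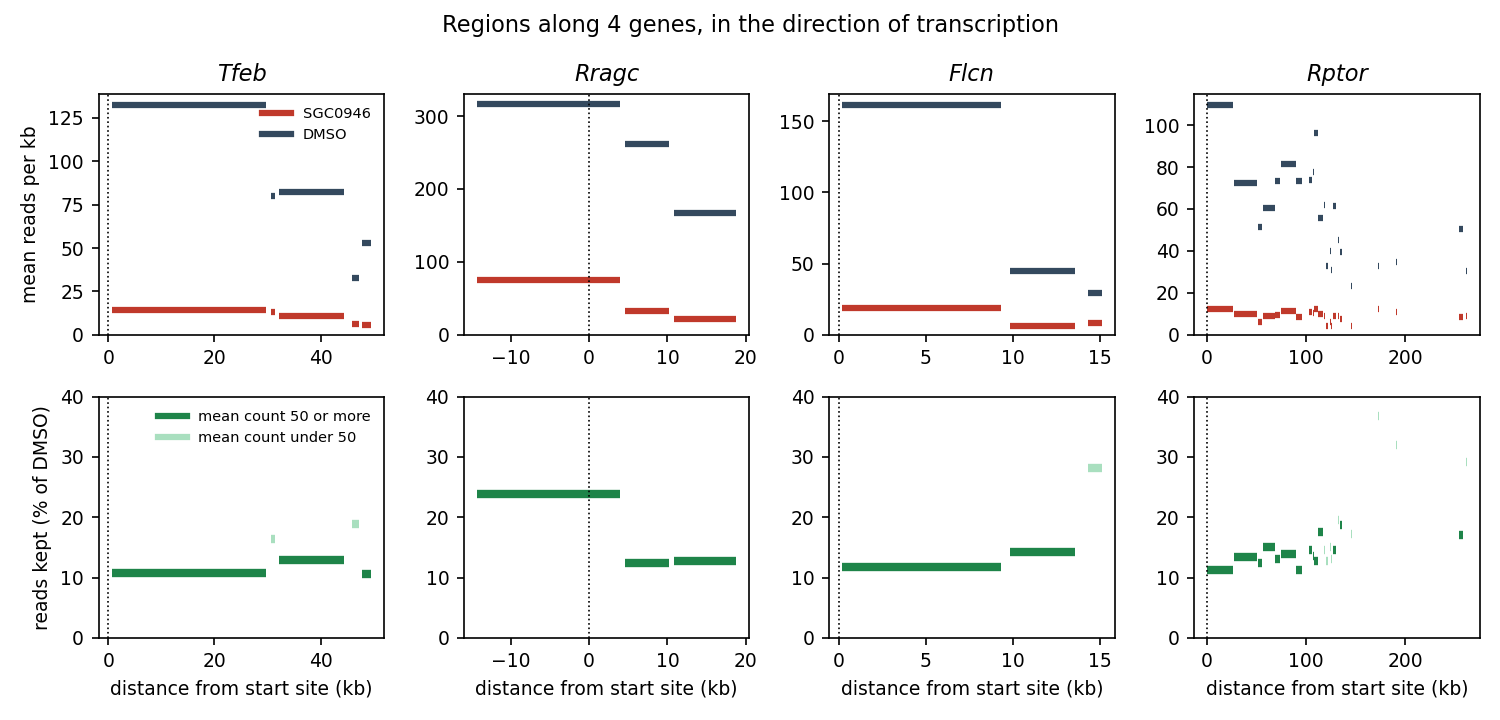
Regions of 4 genes by distance from the annotated start site in kb, in the direction of transcription; above, mean reads per kb with SGC0946 and with DMSO; below, reads kept as percent of DMSO, darker where the mean count is at least 50. Tfeb, Flcn and Rptor keep least in the first region (10.8%, 11.7% and 11.2%), apart from the last Tfeb region at 10.7%. In contrast, the first Rragc region, which also overlaps Mycbp, keeps most (23.8%).

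The 27 regions of Rptor lie along most of the gene, the first 2 reaching 50762 bases into it and 23 more lying up to 191749 bases after the start site. Farther on, a region of 4457 bp, 254630 to 259086 bases after the start site, held 45, 31 and 39 counts in SGC0946 libraries, against 194, 230 and 253 in DMSO libraries. The 14 regions that averaged 50 counts or more kept 11.2 to 18.7%. The 13 thinner ones kept 12.7 to 36.8%. Of the 23 regions tested 7 fell in share, all among the 14, and 2 rose, both among the thinner. One of these (119775967 to 119776736) had 9, 6 and 13 counts in SGC0946 libraries, against 24, 29 and 23 in DMSO libraries, and the other (119793689 to 119794654) had 12, 14 and 6 counts in SGC0946 libraries, against 25, 25 and 50 in DMSO libraries. Both still fell in unscaled counts. What part of the reads in thin regions is background was not tested, since the input sample was not used here.

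Of all 44 regions, 39 were tested for share, 14 fell and 3 rose, against 23.3% and 6.16% of all 23367 regions tested. The falls all lay among the 26 regions that averaged 50 counts or more. In regions of that size 48.6% fell and 7% rose over the whole table.

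The rest of the pathway was taken from 14 lists by role, with 54 genes beside the 8. A region was found for 44 of them, and 42 were tested. Of these 24 were lower in share, 3 higher and 15 did not pass, with a median log2 change of -0.33, and all 42 fell in unscaled counts. These shares again lie near those of all coding genes. No region overlapped 10 of the genes: Prr5, Rragb, Nprl2, Kptn, Sesn3, Castor1, Tsc2, Tbc1d7, Rhebl1 and Eif4ebp3. Deptor and Ppp3cc had one too thin to test.

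**Figure D3:**
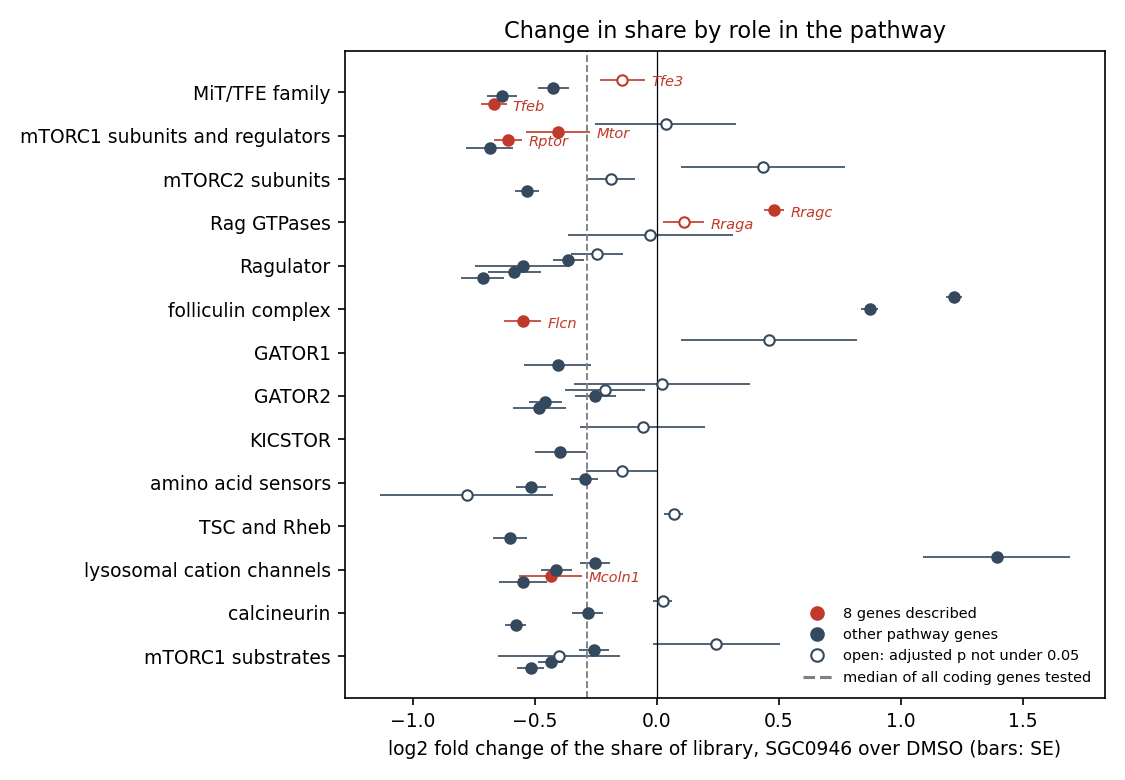
Log2 fold change of the share of library, SGC0946 over DMSO, with SE, for the tested genes of 14 lists; the 8 genes are in red, open symbols did not pass, and the dashed line is the median of all coding genes tested (-0.29). Fnip1, Fnip2, Mcoln3 and Rragc lie to the right as the genes called higher, and most others lie between -0.7 and 0. The Rragc value is that of the region shared with Mycbp.

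In the MiT/TFE family, Mitf and Tfec were lower in share, as was Tfeb. Mitf, the melanocyte and osteoclast factor, had 288, 297 and 266 counts in SGC0946 libraries, against 2378, 2618 and 2735 in DMSO libraries, kept 11.0% and fell in share, at log2 -0.63 (edgeR adjusted p = 6.8e-14). Tfec, a family member made in macrophages, kept 12.7% and fell, at log2 -0.43 (adjusted p = 8.3e-08, lost with cyclic loess at 0.169). Of the 4 factors, Tfe3 alone did not pass.

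The folliculin complex held both directions in share, with Flcn lower and its partners higher. Fnip1 and Fnip2 encode the binding partners of folliculin and have long, dense regions of 44348 and 75529 bp. Fnip1 had 5615, 5015 and 5156 counts in SGC0946 libraries, against 15565, 16614 and 18323 in DMSO libraries, and kept 31.3%. Fnip2 had 12541, 11671 and 11898 counts in SGC0946 libraries, against 28498, 29344 and 33118 in DMSO libraries, and kept 39.7%. Their shares rose by log2 0.87 and 1.22 (edgeR adjusted p = 1.1e-32 and 9.5e-44) while the unscaled counts fell. Scaled on the sparsest 25% of regions, Fnip1 no longer passed (log2 0.19, adjusted p = 0.451). Within libraries the log2 ratio of Flcn to Fnip1 was -4.94 ± 0.137 with SGC0946 and -3.51 ± 0.144 with DMSO (SD, n = 3), and that of Flcn to Fnip2 was -6.13 ± 0.131 with SGC0946 and -4.36 ± 0.122 with DMSO. The groups did not overlap in either ratio, the differences were 2.68-fold and 3.41-fold, and each exact permutation p was 0.1, the smallest possible. These 2 ratios were added after the values were seen.

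**Figure D4:**
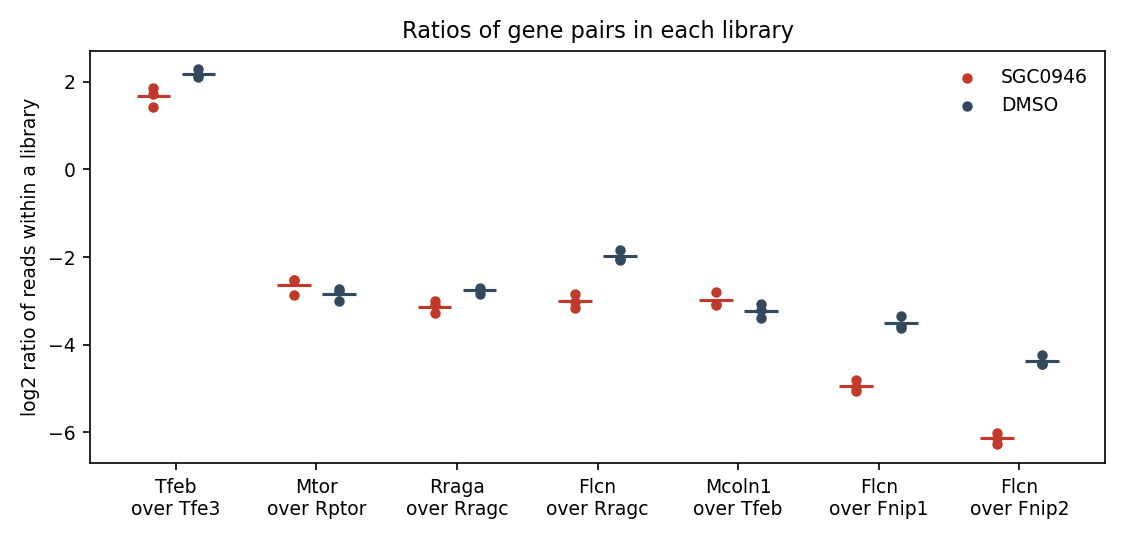
Log2 ratio of reads of gene pairs inside each library, SGC0946 left of DMSO; points are libraries and bars their means. The groups are apart for Tfeb over Tfe3, Rraga over Rragc, Flcn over Rragc and Flcn over its partners Fnip1 and Fnip2, and overlap for Mtor over Rptor and Mcoln1 over Tfeb. The Rragc reads are those of the region shared with Mycbp.

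Among channels, Mcoln2 kept 14.3% and fell in share (log2 -0.25, edgeR adjusted p = 4.8e-04). That call was lost with TMM factors, DESeq2 size factors and the DESeq2 Wald test (adjusted p = 0.120, 0.215 and 0.271), and with cyclic loess its value turned to 0.0039 (adjusted p = 0.982). Mcoln3 rose in share by log2 1.39 ± 0.30 (adjusted p = 1.2e-04), but in a thin region of 1172 bp with 15, 10 and 20 counts in SGC0946 libraries, against 29, 38 and 33 in DMSO libraries. All 5 channel genes were called, Mcoln3 as higher and 4 as lower with Mcoln2 among them, where 50.1% of all coding genes tested were lower and 9.98% higher. Rragd, a partner of RagA like Rragc, had a thin mark of 13, 5 and 8 counts in SGC0946 libraries, against 63, 35 and 57 in DMSO libraries, and its share of log2 -0.03 did not pass (adjusted p = 0.971).

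The Ragulator, which anchors the Rag GTPases to the lysosome, had 4 of 5 genes lower in share and 1 that did not pass, where 50.1% of all coding genes tested were lower. Lamtor1, its membrane anchor, had the lowest change in share among the pathway genes that passed with a mean of at least 50 counts. It had 120, 109 and 105 counts in SGC0946 libraries, against 971, 1084 and 1153 in DMSO libraries, kept 10.4% and fell, at log2 -0.71 (edgeR adjusted p = 2.6e-10). Lamtor4 kept 11.4% (log2 -0.58, adjusted p = 8.8e-06, lost with cyclic loess at 0.200). The region of Lamtor1 also overlaps Tomt and that of Lamtor4 also Map11, so neither can be credited to the named gene alone. Akt1s1, which encodes the mTORC1 inhibitor PRAS40, kept 10.6% (log2 -0.69, adjusted p = 1.0e-08), and Tsc1, a subunit of the complex that restrains the mTORC1 activator Rheb, kept 11.2% (log2 -0.60, adjusted p = 2.5e-11). None of the genes outside those named above rose.

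The mTORC1 list had 3 lower of 4 tested, with Mtor and Rptor among them. The Rag list had 1 higher of 3, which was Rragc by its region shared with Mycbp. Of the other lists, GATOR2 had 3 lower of 5 tested, the mTORC1 substrates 3 of 5, the amino acid sensors 2 of 4, calcineurin 2 of 3, the mTORC2 subunits 1 of 3, and GATOR1, KICSTOR and the TSC and Rheb list 1 of 2 each, with none higher. With 50.1% of all coding genes tested lower in share, these counts of 2 to 5 genes are not set apart from the background.

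Genes with the most similar profile over the 6 libraries were named by the smallest Euclidean distance of log2 CPM per kb between highest-count regions. Tfeb lay nearest to Atg7 (distance 0.08, 10.7% kept) and Dennd1b (0.10), Rptor to Nfkbil1 (0.09) and Fbxo34 (0.10), and Flcn to Frmd4b (0.15) and Dpm1 (0.18). Mtor lay nearest to Rnf150 (0.17) and Gbf1 (0.17), and Mcoln1 to Mrpl47 (0.20) and Jak2 (0.20). Rraga lay nearest to Psma5 (0.11) and Polr2m (0.13), Rragc to Mbnl1 (0.09) and Csnk1a1 (0.13), and Tfe3 to Sdad1 (0.15) and Ilk (0.24). The regions of Ilk and Dpm1 also overlap Rrp8 and Mocs3. Those of Rraga and Rragc also overlap Haus6 and Mycbp, so their matches are to shared regions. Among 7941 candidates 795 lay within 0.5 of Tfeb and 254 within 0.5 of Tfe3.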

How the data were processed

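The authors deposited a table of whole-number read counts for 29397 regions from 6 H3K79me2 libraries, and these showed no sign of scaling. Per the labels' protocols, 10 to 20 M cells per sample were crosslinked in 1% formaldehyde and the libraries read single-ended. The build was mm10, and the submitters' processing notes list R 3.6.3, ChIPseeker 1.20.0, HISAT2, bedtools 2.27.0 and HOMER 4.11.1. The roles of these tools, the treatment of duplicate reads and the pooling behind the region calls are not given in the sources used here, and each could change the counts. The input sample was not used here. A column that is 0 in every row was left out.

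Starts were read as zero-based and are given 1-based. Gene spans, strands and promoters came from RefSeq (GRCm38.p6, the assembly mm10 names). Exons were not separated. The 8 genes, the lists and the tests were chosen with earlier results of these data known. Named pathway genes were the paralogs and partners of the 8 and, among genes called with a mean of at least 50 counts, the 4 highest and 4 lowest changes in share; no such gene beside the paralogs and partners rose.

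The main test was the quasi-likelihood test of edgeR 4.0.16 (R 4.3.3, filterByExpr, Benjamini-Hochberg over all regions, threshold 0.05) on library totals (share) and with equal library sizes (unscaled). SE is the log2 fold change over the root of F. Libraries within a group differed beyond sampling noise (chi-square per degree of freedom 1.32 to 2.38). The design text calls them biological replicates; whether each came from its own animals is not given. In simulated counts for this comparison (22013 regions tested, dispersion 0.002) 96% of regions changed 4-fold were recovered, 70% of those changed 2-fold, 66% of those changed 1.5-fold and 26% of those given the smallest change simulated. There were 2 false calls. The simulation changed only 50 regions per fold, up and down alike, so it does not measure false calls where most regions change the same way. DESeq2 1.42.0 and limma 3.58.1 gave alternatives. Python 3.11.15 and matplotlib 3.10.9 made tables and figures.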

Additional observations from a re-analysis of the deposited data

How the results depend on the processing

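In unscaled counts the 8 genes stayed lower under all 9 alternatives run, and the SGC0946 total as a percent of the DMSO total ranged from 16.6 to 17.97 without single libraries. In share, Tfeb and Rptor stayed lower under all 16 alternatives run (log2 -0.45 to -1.36 and -0.35 to -1.30). Scaling on the sparsest 25% of regions lowered the median of all regions from -0.09 to -0.82 and called 195 regions higher and 13501 lower, with 2 pathway genes and, of the 8, 0 higher and 7 lower. It turned Rraga to -0.59 and Rragc to -0.20, and Tfe3 passed as lower at -0.85 (adjusted p = 3.3e-07). The DESeq2 Wald test called 2505 regions higher and 2831 lower, 19 pathway genes lower and 3 of the 8 lower. Cyclic loess called 1562 regions, 11 pathway genes and 2 of the 8 lower and 2 of the 8 higher, and turned Tfe3 to 0.21 and Mcoln2 to 0.0039. Calls higher were 20.9% of region calls on library totals, 51.1% with cyclic loess, 47.0% with the Wald test, 33.3% with DESeq2 size factors and 33.0% with TMM, and the median of all regions was -0.03, 0.09, 0.03 and 0.03 in that order of alternatives. Without a count filter 2784 regions were higher, and 808 where only regions averaging 50 counts or more were tested. Leaving out single libraries gave 918 (without DMSO replicate 3, 13575 regions tested) to 2155 (without SGC0946 replicate 3) higher regions. By longest overlap 0 of the 8 were higher and Rragc turned to -0.46. Rragd turned to 0.0765 with TMM, 0.0825 with DESeq2 size factors and 0.0856 with the Wald test, and ran from -0.41 to 0.24 without single libraries. Mtor over Rptor turned to -0.0539 on sums of regions. The causes were not tested beyond what each setting does by construction.

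Same-numbered libraries did not deviate together (correlations 0.0076, -0.11 and -0.0099), and differently numbered ones ranged from -0.097 to 0.10. Such small values cannot exclude that the numbers pair the libraries, for example by a shared preparation, and the labels do not say. With the replicate block 1414 regions were higher and 5202 lower in share, 24809 were lower in unscaled counts, and 5 of the 8 genes were lower and 1 higher. Low counts limit the thin regions: 5 of the 44 were not tested for share.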
